A study of Triticum aestivum with 12 samples.

Results

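The genes described here are the wheat photoperiod genes PPD1 and GIGANTEA, measured by RNA sequencing in crowns of the cultivar Jing411. They were chosen by identifier, and 8 identifiers were listed: 2 of PPD1 (on chromosomes 2A and 2D), 3 of GIGANTEA (3A, 3B and 3D) and 3 of FT1, also called VRN3 (7A, 7B and 7D). The count table gave values for 5 of the 8, out of 128497 gene models in all. These are PPD1 2A (TraesCS2A01G081900), PPD1 2D (TraesCS2D01G079600), GIGANTEA 3A (TraesCS3A01G116300), GIGANTEA 3B (TraesCS3B01G135400) and GIGANTEA 3D (TraesCS3D01G118200). The 3 FT1 identifiers (TraesCS7A01G115400, TraesCS7B01G013100 and TraesCS7D01G111600) were not analysed here, and no level is given for them. The table pairs identifiers with no names, so the names rest on the identifiers alone, and no 2B copy of PPD1 was listed.

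The study set cold acclimation against freezing in 4 groups of 3 biological replicates, all of the same cultivar. NTG plants stayed at 20 °C for 28 days. LTA plants spent the same 28 days in the cold, at 4 °C. NTGF plants followed the NTG regime and LTAF plants the LTA regime, and both were then frozen at -5 °C for 24 hours. The tissue label reads "SEEDING", the extraction protocol names the crown (the stem base that holds the growing points), and neither the day length nor the hour of sampling is given. Whether the groups were sampled at the same hour is therefore unknown, and the part of the hour in any difference between them was not tested. Crown markers could not be checked without gene names.

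Plants read day length by setting the light signal against an internal clock. GIGANTEA is a clock-linked protein, known mainly from Arabidopsis, whose transcript follows a daily rhythm and which acts upstream of the flowering signal FT. PPD1 encodes a pseudo-response regulator, is also transcribed with a daily rhythm, and is the main day length gene of wheat, where it raises FT1 in leaves under long days, and FT1 is the mobile flowering signal that ends the vegetative phase. Bread wheat carries copies of most genes on its A, B and D subgenomes (homoeologs), which are near-identical and can share reads.

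Each library held 17871036 to 21491305 counted reads. Levels are CPM, counts relative to the TMM-scaled library size, and are not per gene length, so each gene is compared only with itself across groups. Across tested genes the rank correlation between NTGF replicates was 0.932 to 0.947, and LTAF replicate 2 reached 0.935 and 0.917 with the other LTAF replicates, which had 0.978 with each other. The other groups had 0.964 to 0.979. Results that change without one of these libraries are given both ways. In bulk tissue, fewer cells that use a gene and less RNA per cell cannot be told apart.

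All 3 copies of GIGANTEA lay far lower in frozen unacclimated crowns than in any other group. GIGANTEA 3A had 53.9, 52.3 and 50.05 CPM in NTG replicates 1 to 3 and 48.7, 53.98 and 53.3 in LTA. It had 9.45, 4.15 and 11.3 CPM in NTGF and 62.8, 65.97 and 55.6 in LTAF. The NTGF libraries stood apart from all others, with replicate 2 lowest, while NTG and LTA overlapped and LTAF lay above both without overlap. In raw counts these NTGF values were 185, 78 and 200 reads, against 887 to 1404 reads in the other 9 libraries.

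GIGANTEA 3B showed the same order of NTGF against the rest. Its levels were 60.2, 56.9 and 53.4 CPM in NTG and 61.6, 61.7 and 66.1 in LTA, then 6.90, 2.45 and 7.83 in NTGF and 55.8, 50.6 and 50.3 in LTAF. The NTG and LTAF libraries overlapped, and LTA lay just above both. GIGANTEA 3D had 46.7, 43.1 and 43.2 CPM in NTG and 36.7, 44.5 and 41.9 in LTA, then 4.19, 2.29 and 6.08 in NTGF and 50.97, 40.7 and 50.4 in LTAF. Here NTG, LTA and LTAF all overlapped, and NTGF again had no library near them.

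The copies of PPD1 had few reads, and they did not move alike. PPD1 2A had 70, 99 and 94 reads in NTG, 34, 48 and 50 in LTA, 6, 1 and 4 in NTGF, and 41, 51 and 42 in LTAF. These counts equal 3.64 ± 0.880 CPM in NTG, 2.30 ± 0.388 in LTA, 0.195 ± 0.129 in NTGF and 2.62 ± 0.285 in LTAF (SD, n = 3 each). The NTGF libraries lay below all others, LTA lay below NTG without overlap, and LTAF overlapped with both.

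PPD1 2D had 165, 119 and 84 reads in NTG, 90, 90 and 74 in LTA, 28, 89 and 40 in NTGF, and 48, 25 and 49 in LTAF. The levels were 4.95 ± 1.24 CPM in NTG, 4.44 ± 0.533 in LTA, 2.81 ± 1.72 in NTGF and 2.40 ± 0.861 in LTAF (SD, n = 3 each). NTGF replicate 2, with 4.74 CPM, lay within the unfrozen range, whereas NTGF replicates 1 and 3 lay at 1.43 and 2.25 CPM. That library holds the lowest value of PPD1 2A and of all 3 GIGANTEA copies, so its high PPD1 2D value is not shared by the other members.

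**Figure D1:**
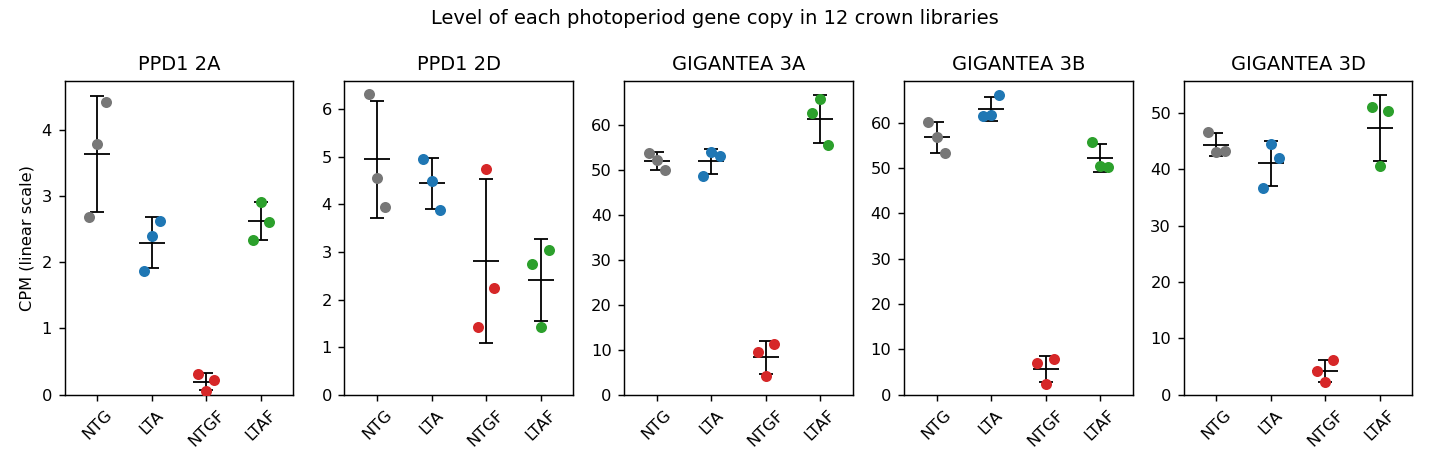
Level of the 5 analysed gene copies in CPM on linear axes that start at 0, with 1 point per library and the mean ± SD of each group (n = 3). In NTGF, PPD1 2A and the 3 GIGANTEA copies sit below every other library, while PPD1 2D in NTGF spreads from 1.43 to 4.74 CPM.

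The comparison of NTGF with NTG addresses what freezing changes in plants that were never acclimated. Of the 5 members, 4 fell and none rose at an adjusted p under 0.05 in edgeR's quasi-likelihood test, where 11.7% of all 69693 tested genes were called lower and 14.2% higher. The median log2 fold change of the members was -3.31, beside 0.04 over all tested genes. All 5 members passed the filter on low counts.

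GIGANTEA fell in all 3 copies. GIGANTEA 3D fell by 3.40 ± 0.28 on the log2 scale, or 10.6-fold (SE, edgeR adjusted p = 2.48e-05), and its 95% interval ran from -4.01 to -2.80. GIGANTEA 3B fell by 3.31 ± 0.32, or 9.92-fold (edgeR adjusted p = 8.62e-05). GIGANTEA 3A fell by 2.65 ± 0.28, or 6.28-fold (edgeR adjusted p = 0.000142). Among all tested genes, 1.01%, 1.12% and 2.21% had a fold change as low as these or lower. The sum of the 3 copies, which does not depend on how shared reads are divided between them, went from 153.2 ± 7.09 CPM in NTG to 18.2 ± 8.39 in NTGF (SD, n = 3 each). That sum fell by 3.07 ± 0.30 on the log2 scale (SE, edgeR adjusted p = 7.56e-05).

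PPD1 2A fell by 4.17 ± 0.40 on the log2 scale, or 18.0-fold (SE, edgeR adjusted p = 7.54e-05), and 0.463% of tested genes had a fold change as low or lower. It rests on 263 reads over the 3 NTG libraries and 11 over the 3 NTGF libraries. PPD1 2D differed by -0.82 ± 0.39 with a 95% interval of -1.67 to 0.03 and was not called (edgeR adjusted p = 0.144). Without NTGF replicate 2 the PPD1 2D difference was -1.42 and was called (edgeR adjusted p = 0.0176). The sum of both PPD1 copies fell by 1.52 ± 0.28 (SE, edgeR adjusted p = 0.00326), from 8.58 ± 0.377 to 3.002 ± 1.59 CPM (SD, n = 3 each).

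LTAF against LTA addresses the same freezing after acclimation. None of the 5 members was called by edgeR, where 1.92% of tested genes were called lower and 3.99% higher, and DESeq2 called none either. At an unadjusted p under 0.05 there was 1, PPD1 2D. GIGANTEA 3A differed by 0.24 ± 0.26 on the log2 scale, GIGANTEA 3B by -0.27 ± 0.29 and GIGANTEA 3D by 0.20 ± 0.25 (SE). The GIGANTEA sum lay at 156.2 ± 7.94 CPM in LTA and 161 ± 7.40 in LTAF (SD, n = 3 each), and the 95% interval of its log2 difference was -0.55 to 0.64, which leaves out a fall of the size seen without acclimation. PPD1 2A differed by 0.19 ± 0.31, with an interval of -0.49 to 0.86. PPD1 2D differed by -0.89 ± 0.40 (SE, edgeR adjusted p = 0.231), the libraries of LTAF lying below those of LTA without overlap.

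The interaction tests whether these freezing responses differ. It is the log2 change from LTA to LTAF minus the log2 change from NTG to NTGF. It was positive for 4 of the 5 members, where 5.12% of tested genes were called positive and 5.91% negative. The term was 4.36 ± 0.51 for PPD1 2A (SE, edgeR adjusted p = 0.00145), 2.89 ± 0.38 for GIGANTEA 3A (adjusted p = 0.00254), 3.04 ± 0.42 for GIGANTEA 3B (adjusted p = 0.00381) and 3.61 ± 0.37 for GIGANTEA 3D (adjusted p = 0.00064). For PPD1 2D it was -0.07 ± 0.56 (adjusted p = 0.955), with an interval from -1.28 to 1.14 that allows a difference in either direction. The drop to -5 °C began at 4 °C in one regime and at 20 °C in the other, so acclimation and the size of the drop cannot be told apart.

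LTAF against NTGF compares frozen crowns with and without acclimation, and it shares the NTGF libraries with the comparison of NTGF and NTG. The same 4 members were higher in LTAF, where 20.2% of tested genes were called higher and 19.6% lower. PPD1 2A was higher by 3.70 ± 0.41 on the log2 scale, GIGANTEA 3A by 2.89 ± 0.28, GIGANTEA 3B by 3.19 ± 0.32 and GIGANTEA 3D by 3.50 ± 0.28 (SE, edgeR adjusted p from 1.16e-05 to 7.28e-05). PPD1 2D differed by -0.23 ± 0.41 (adjusted p = 0.682). The sum of both PPD1 copies was higher by 0.74 ± 0.29 and was not called (adjusted p = 0.0583), but it was called without NTGF replicate 2 (1.25, adjusted p = 0.00115) and without LTAF replicate 2 (0.84, adjusted p = 0.04). DESeq2 (0.75, adjusted p = 0.0457) and edgeR without the filter on low counts (0.78, adjusted p = 0.0412) called it too.

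**Figure D2:**
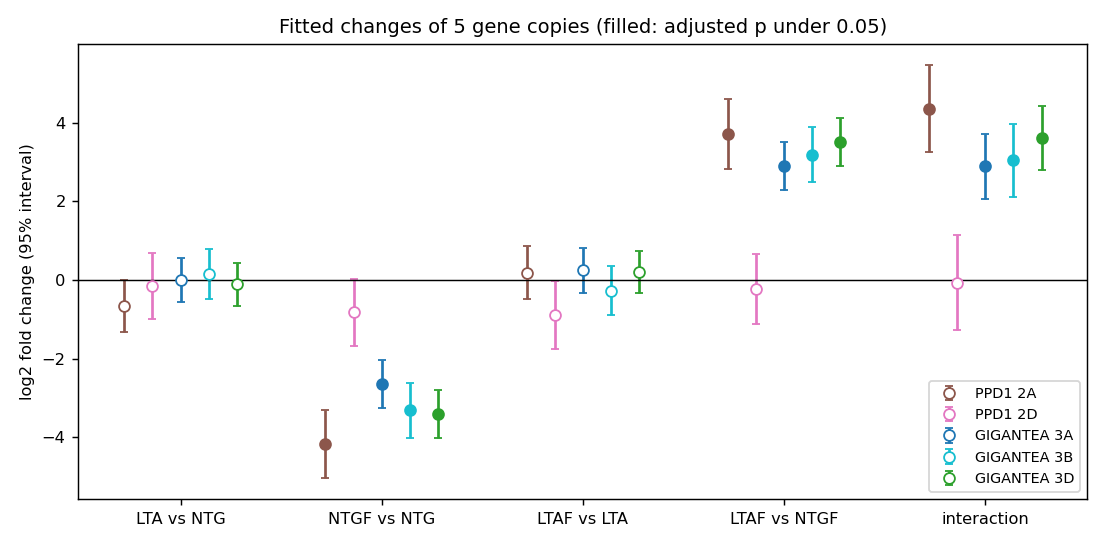
Fitted log2 fold change of each gene copy in 4 comparisons and the interaction, with 95% intervals, where filled points have an edgeR adjusted p under 0.05. PPD1 2A and the GIGANTEA copies lie between -4.17 and -2.65 in NTGF against NTG, and all intervals for LTA against NTG and all but that of PPD1 2D for LTAF against LTA include 0.

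LTA against NTG addresses what acclimation alone changes. None of the 5 members was called by edgeR, where 20.0% of tested genes were called higher and 18.1% lower. None had an unadjusted p under 0.05, and DESeq2 called none. The 95% intervals of the log2 differences were -0.57 to 0.56 for GIGANTEA 3A, -0.48 to 0.78 for GIGANTEA 3B and -0.65 to 0.43 for GIGANTEA 3D. PPD1 2D had an interval of -0.99 to 0.67. PPD1 2A was nearest to a call, at -0.66 ± 0.30 (SE, edgeR adjusted p = 0.105). It was called in a fit of only the NTG and LTA libraries (-0.63, with an adjusted p just under the threshold). It was also called with scaling by library totals (-0.997, edgeR adjusted p = 0.0213). That scaling moved the median of all tested genes in this comparison from -0.06 to -0.40.

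Set in order of their mean levels, the GIGANTEA copies had NTGF lowest, and no pair among NTG, LTA and LTAF was called for any of them. Against LTA, NTGF differed by -2.65, -3.46 and -3.29 on the log2 scale for 3A, 3B and 3D, all called (edgeR adjusted p from 1.08e-05 to 4.23e-05), where 20.3% of tested genes were called lower, and these values share the NTGF libraries with those above. PPD1 2A had the order NTGF, LTA, LTAF, NTG. The step from NTGF to LTA was called (log2 difference of NTGF from LTA -3.51, edgeR adjusted p = 7.62e-05), and the steps above it were not. PPD1 2D had the order LTAF, NTGF, LTA, NTG, and no neighbours in it differed by a call, except that NTGF lay below LTA without NTGF replicate 2 (-1.27, edgeR adjusted p = 0.0157). Its ends, LTAF and NTG, differed by -1.05 ± 0.40 (SE, edgeR adjusted p = 0.0488), where 21.5% of tested genes were called lower in LTAF. That call held in 6 of 18 alternatives and was lost without any of 10 of the 12 libraries, all but NTGF replicates 1 and 2.

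The shares of the copies within a family moved too. Of the reads of PPD1 2A and 2D together, 2A made up 29.8%, 45.4% and 52.8% in NTG and 27.4%, 34.8% and 40.3% in LTA. No 2B copy was listed, so these are not shares of all PPD1 reads. In NTGF it made up 17.6% (95% exact binomial interval 6.76 to 34.5), 1.11% (0.0281 to 6.04) and 9.09% (2.53 to 21.7), and in LTAF 46.1%, 67.1% and 46.2%. The NTGF shares lay below those of each other group without overlap, and the LTAF shares lay above those of LTA. Between NTG and NTGF the mean share dropped by 33.4 percentage points. An exact two-sided permutation test gave p = 0.1, which is the lower limit for groups of 3, and 0.143 after adjustment over the 30 share comparisons.

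Within GIGANTEA the 3A copy held a larger share in both frozen groups than in both unfrozen groups. It made up 33.99% ± 0.413 of the GIGANTEA reads in NTG, 33.3% ± 0.354 in LTA, 45.8% ± 0.997 in NTGF and 38.2% ± 3.35 in LTAF (SD, n = 3 each). The NTGF libraries, at 44.7% to 46.7%, lay above all other libraries, of which LTAF replicate 2 was highest at 41.97%. The LTAF libraries, at 35.6% to 41.97%, lay in turn above all NTG and LTA libraries, which reached at most 34.3%. GIGANTEA 3B made up 37.1% ± 0.557 in NTG, 40.4% ± 1.75 in LTA, 30.7% ± 3.03 in NTGF and 32.4% ± 0.412 in LTAF. The shares of 3B in both frozen groups lay below those in both unfrozen groups without overlap. Without freezing, those in LTA lay above those in NTG without overlap too. GIGANTEA 3D made up 28.9% ± 0.563 in NTG, 26.3% ± 1.43 in LTA, 23.4% ± 2.75 in NTGF and 29.4% ± 3.24 in LTAF. Its NTGF shares overlapped with those of LTA, and its LTA shares lay below those of NTG without overlap. The exact two-sided permutation p for NTGF against NTG was 0.1 for each copy, and how reads shared between copies were counted is not given, so its part in these shares was not tested.

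**Figure D3:**
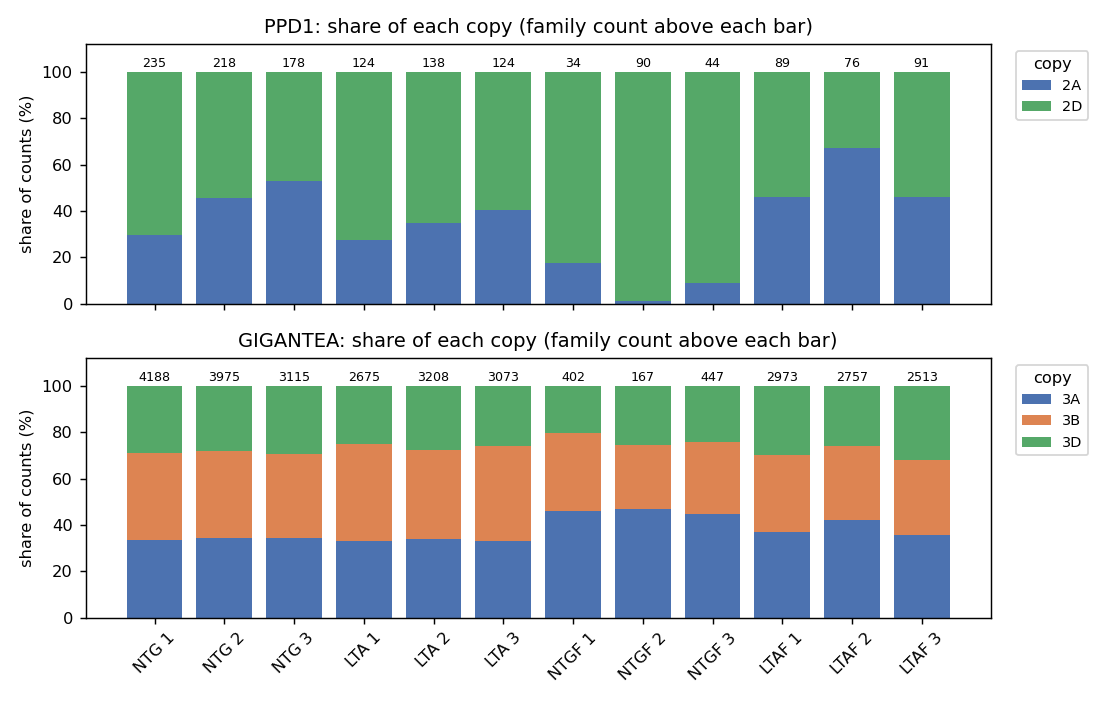
Share in percent of each copy among the reads of its family's analysed copies, in each of the 12 libraries. The summed read count of those copies stands above each bar, and PPD1 covers 2A and 2D only. PPD1 2A shrinks to between 1.11% and 17.6% in NTGF, and GIGANTEA 3A grows to between 44.7% and 46.7% there.

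Genes beside the photoperiod copies did not fall as far in NTGF. The 5 high-confidence models on each side, in identifier order among the models of the table, gave 20 neighbours of PPD1, of which 13 passed the filter, and 30 of GIGANTEA, of which 23 passed. In NTGF against NTG, 3 tested PPD1 neighbours were called higher and none lower, with a median log2 fold change of 0.53. Among GIGANTEA neighbours 1 was called higher and 4 lower, with a median of -0.10. Over all tested genes the median was 0.04, with 14.2% of genes called higher and 11.7% lower. The neighbours with the highest mean level near PPD1, TraesCS2A01G082100 and TraesCS2D01G080000, went from 235.9 ± 27.3 to 264.8 ± 28.8 CPM and from 209.7 ± 20.3 to 215.1 ± 31.5 CPM (SD, n = 3 each), and neither was called (edgeR adjusted p = 0.41 and 0.888).

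Near GIGANTEA the neighbours with the highest mean level were TraesCS3D01G117300, which rose by 0.77 on the log2 scale (edgeR adjusted p = 0.00149), and TraesCS3B01G135100, which fell by 0.69 (edgeR adjusted p = 0.0124). The other 3 neighbours that fell, chosen for mention after their values were seen, were TraesCS3A01G116000 by 0.78, TraesCS3D01G117900 by 0.62 and TraesCS3A01G115800 by 1.27. TraesCS3A01G116000, TraesCS3B01G135100 and TraesCS3D01G117900 all lie 2 models before a GIGANTEA copy. In LTAF against NTGF they were higher by 0.52, 0.93 and 0.86 on the log2 scale (edgeR adjusted p = 0.074, 0.00149 and 0.00136). There 20.2% of tested genes were called higher. In NTGF against NTG, none of the 13 and 23 tested neighbours fell as far as the PPD1 or GIGANTEA copy that it lies beside. The fall of PPD1 2D was itself not called.

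**Figure D4:**
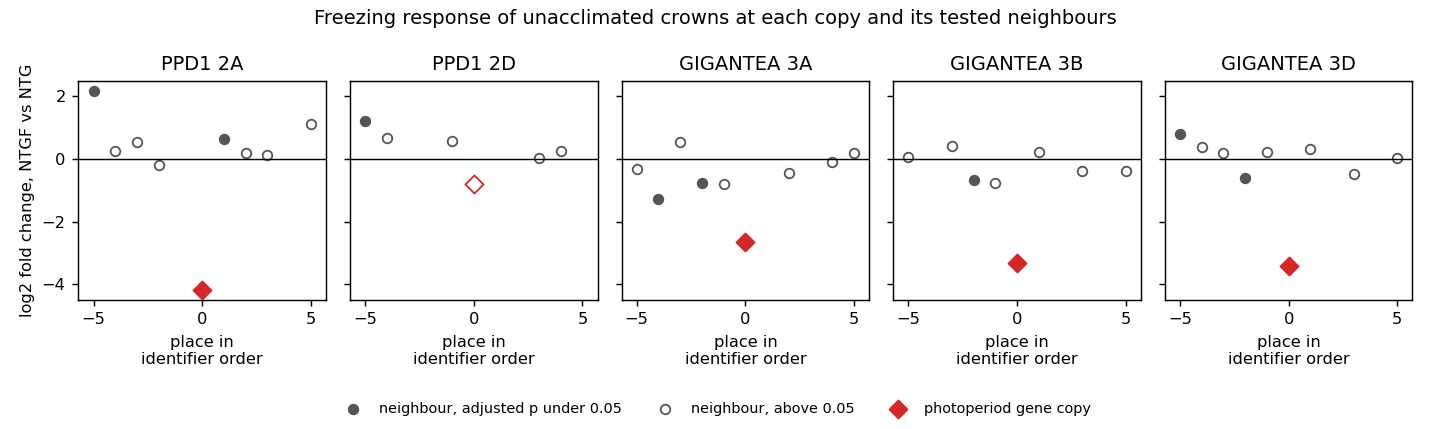
Log2 fold change of NTGF against NTG for each photoperiod gene copy (diamond) and its tested neighbours, by place in identifier order, where filled symbols have an edgeR adjusted p under 0.05. PPD1 2A and the GIGANTEA copies lie at -4.17 to -2.65, and the lowest tested neighbour lies at -1.27.

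A pattern of low values in NTGF alone was uncommon. Of 69693 tested genes, 313 (0.449%) had every NTGF library at least 4-fold below every other library, and 40 (0.0574%) had every NTGF library at least 4-fold above. The 313 include PPD1 2A and the 3 GIGANTEA copies. The lowest level outside NTGF was 6.09 times the highest NTGF level for PPD1 2A, and 4.33, 6.43 and 6.04 times for GIGANTEA 3A, 3B and 3D. The factor of 4 was chosen after the values were seen, so these numbers describe how many genes look alike and test nothing.

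Over the 12 libraries the Pearson correlation of log2 CPM was 0.989 to 0.992 between the GIGANTEA copies and 0.970 to 0.973 between them and PPD1 2A. PPD1 2D had 0.238 with PPD1 2A and 0.182 to 0.281 with the GIGANTEA copies. These libraries share the gap between NTGF and the rest, so the values describe that gap as much as any finer likeness. Outside the family, TraesCS4D01G166000 was most like GIGANTEA 3A, 3B and 3D (0.987, 0.993 and 0.995). It had 33.6 ± 4.58 CPM in NTG, 36.3 ± 0.990 in LTA, 2.08 ± 0.907 in NTGF and 35.05 ± 6.79 in LTAF (SD, n = 3 each). The next was TraesCS4A01G162200 for GIGANTEA 3B and 3D (0.992 and 0.990) and TraesCSU01G259400LC for 3A (0.987). For PPD1 2A these were TraesCS2A01G332200LC (0.981) and TraesCSU01G259400LC (0.980). PPD1 2D was most like TraesCS6A01G132300 (0.966) and TraesCS7D01G124500 (0.948), which were not low in NTGF alone. TraesCS6A01G132300 had very few reads, so its correlation rests on low counts. Its levels were 0.553 ± 0.152 CPM in NTG, 0.351 ± 0.0768 in LTA, 0.161 ± 0.231 in NTGF and 0.0605 ± 0.0622 in LTAF (SD, n = 3 each). TraesCS7D01G124500 had 8.81 ± 2.66 CPM in NTG, 7.31 ± 1.59 in LTA, 3.76 ± 2.48 in NTGF and 3.99 ± 0.912 in LTAF (SD, n = 3 each).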

How the data were processed

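RNA from crowns of 12 samples was sequenced on Illumina libraries, per the labels' protocols. The deposited table holds raw read counts per gene model, per the file headers. How reads were aligned and counted, on which build, and what was done with reads matching several copies is not given in the sources used here. The reference table (IWGSC CS RefSeq v2.1) matched 0 identifiers, so no other pathway gene could be named, and no sequence is printed.

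After filterByExpr with a minimum count of 10, 69693 models were tested. They were scaled with TMM and fitted by group over all 12 libraries, using robust quasi-likelihood F tests of edgeR 4.0.16 under R 4.3.3. Adjusted p-values (Benjamini-Hochberg) cover all tested genes, and the threshold was 0.05. A second fit replaced the listed copies of a family by their sum. Log2 CPM used a prior count of 2. Shares have exact binomial intervals, which cover counting error only, since reads are not independent molecules. Alternatives were DESeq2 1.42.0, 2 other scalings, no filter, the replicate number as a block, fits of the groups compared only, and leaving out each library. The edgeR fit was also run on simulated counts. That run did not cover the shares, and no result here rests on it.

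The members, gene lists and tests were chosen with earlier results of these data known. The rule for named genes took all members, the 2 genes outside the family most alike to each member, and, per family, the 2 neighbours with the highest mean CPM. Whether the replicates came from separate plants or pools is not stated beyond their being biological.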

Additional observations from a re-analysis of the deposited data

Results flagged for a closer look

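The freezing responses of acclimated and unacclimated crowns differed by the interaction term for PPD1 2A (TraesCS2A01G081900, 4.36 on the log2 scale), GIGANTEA 3A (TraesCS3A01G116300, 2.89), GIGANTEA 3B (TraesCS3B01G135400, 3.04), GIGANTEA 3D (TraesCS3D01G118200, 3.61) and the sum of the GIGANTEA copies (3.12, edgeR adjusted p = 0.00209). The term was positive in every alternative run for these 5 results. For the sum of both PPD1 copies it was 1.09 and was not called (edgeR adjusted p = 0.0944), but it was called without NTGF replicate 2 (1.60, edgeR adjusted p = 0.0122) and with scaling by library totals (1.32, edgeR adjusted p = 0.0433). That scaling moved the median interaction term of all tested genes from -0.05 to 0.17. Groups of 3 libraries were not searched for single outlying samples.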

How the results depend on the processing

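In NTGF against NTG, LTAF against NTGF and the interaction, PPD1 2A and the 3 GIGANTEA copies kept their direction and their call under all alternatives. The log2 fold change in NTGF against NTG ran from -4.66 to -3.73 for PPD1 2A, -2.96 to -2.32 for GIGANTEA 3A, -3.62 to -2.94 for GIGANTEA 3B and -3.76 to -3.10 for GIGANTEA 3D, with edgeR or DESeq2 adjusted p up to 0.0068. Scaling by library totals moved the median of all tested genes in this comparison from 0.04 to -0.27, and called PPD1 2D lower too (-1.15, adjusted p = 0.0377). For LTA against NTG, 0 members were called lower, but 1 with library totals, where 22347 of 69693 tested genes were called lower. With only the groups compared 1 member was called lower too, where 16850 of 66161 tested genes were. For LTAF against NTG, 1 member was called lower, but 2 with library totals, where 27631 of 69693 tested genes were called lower. The number was 0 with DESeq2 size factors in edgeR, 0 with the replicate block, and 0 to 1 with a library left out. The sum of both PPD1 copies was called lower in LTAF against NTG (-0.77, edgeR adjusted p = 0.0384). It was not called with the block (edgeR adjusted p = 0.0605) or without any of 9 libraries. Same-numbered libraries did not deviate together (correlations from -0.44 to 0.20 over 18 pairs, 2 of them over 0.1), so the number was not treated as a pairing, and the block changed no other call of a member. PPD1 rests on few reads, 1 to 165 per library and copy, against 43 to 1568 for GIGANTEA.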
